A study of Mus musculus and Homo sapiens with 15 samples.

Results

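Arsenic enters a cell through channels, is methylated or joined to glutathione, and leaves through pumps, and 8 genes of this route were followed across tumours and cells treated with arsenic trioxide (ATO). They were chosen by symbol: Aqp3, Aqp7 and Aqp9 for uptake, As3mt for methylation, Gsto1 and Gstp1 for reduction and conjugation, and Abcc1 and Abcc4 for export. All 8 were found in each deposited table, among 52340 genes in the table of W/W thymus, 56691 in that of grafts in C57 mice and 61806 in that of human U937 cells. The rule uses gene symbols and no measured value.

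At neutral pH arsenite is an uncharged molecule that resembles glycerol, and it crosses membranes through aquaglyceroporins, the water channels that also pass glycerol. Inside the cell As3mt transfers methyl groups from S-adenosylmethionine to arsenic, Gsto1 can reduce pentavalent methylated forms, and Gstp1 belongs to the enzymes that join glutathione to electrophiles. The ATP-driven pumps Abcc1 (also called MRP1) and Abcc4 (MRP4) carry arsenic bound to glutathione, and Abcc4 also methylated arsenic, out of cells. ATO is used as a drug in acute promyelocytic leukaemia.

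RNA sequencing covered 15 samples. The W/W mice were homozygous for p53 R282W, bore T-lymphomas and were sampled from the thymus 150 days after birth: 3 libraries came from mice given water, 3 from mice given ATO whose tumours progressed, and 3 from mice given ATO whose tumours regressed. Tumours of a model labelled CDX in C57 mice, with genotype given as WT, were taken after treatment with a saline control buffer (PBS, 2 libraries) or with ATO (also 2). U937, a human myeloid leukaemia line, was labelled as expressing p53 R282W and gave 1 library after PBS and 1 after ATO. The labels give no dose or length of ATO treatment, do not name the grafted cells, and leave the meaning of replicate numbers unstated. Because outcome defines the ATO groups of W/W mice, treatment and outcome cannot be told apart in a comparison of 1 of them with water. Nor do the labels say that replicates come from separate animals, so p-values measure the spread between these samples only.

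Total counts were 12800367 to 17550594 a library in the W/W table, 12922147 to 15637644 in the C57 table and 16454534 to 17872972 in U937. Levels are given as CPM, a gene's counts over the library total on a common base, scaled in the mouse tables by edgeR's TMM factors, which were 0.747 in water replicate 2, 0.794 in progressing replicate 2 and 1.03 to 1.16 in the other W/W libraries. Mixed tissue was sampled, and levels of cell type markers differed between groups. The summed level of 14 T cell and thymocyte markers was 1981 to 2629 CPM in water, 4736 to 6116 in progressing and 7449 to 14377 in regressing tumours. Within this list Rag1 was at 0.615 to 2.29, 257 to 1382 and 1503 to 3388 CPM in the same groups. Cd3e was at 108 to 226, 167 to 232 and 202 to 327 CPM. The 8 B cell markers summed to 285 to 3217, 4.18 to 34.2 and 124 to 208 CPM in the same groups, with Blk and Ms4a1 at 0 in progressing replicate 1. In bulk RNA, fewer cells of a type and less RNA of a gene per cell cannot be told apart, and the part of these shifts in the results that follow was not tested. In U937, 9 of the 14 T cell and thymocyte markers were at 0 after PBS and 7 after ATO. CD3D, CD3G, CD8A, CD8B, LCK, RAG2 and TCF7 were at 0 in both libraries. The list still summed to 494 CPM after PBS and 275 CPM after ATO. In the same order, 10 neutrophil markers, of which LTF was at 0 after PBS, summed to 343 and 359 CPM. The 12 macrophage markers summed to 1770 and 565 CPM, with C1QA, C1QB, C1QC and MPEG1 at 0 in both libraries. The C57 tumours had all 14 T cell and thymocyte markers, at a sum of 11600 and 10226 CPM after PBS and 8300 and 7508 CPM after ATO.

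The genes lie on several chromosomes, and some are neighbours. On GRCm38, Aqp7 (ENSMUSG00000028427, chromosome 4, 41033074 to 41048139) and Aqp3 (ENSMUSG00000028435, chromosome 4, 41092722 to 41098183) lie 44.6 kb apart on the minus strand. As3mt (ENSMUSG00000003559, chromosome 19, 46707458 to 46741099) and Gsto1 (ENSMUSG00000025068, chromosome 19, 47854970 to 47864790) are 1114 kb apart on the plus strand. Gstp1 (ENSMUSG00000060803, chromosome 19, 4035407 to 4037985, minus strand) stands beside Gstp2 and Gstp3 of the same family, and reads could be split between copies that are alike. Aqp9 (ENSMUSG00000032204) is on chromosome 9 (71110659 to 71168682), Abcc1 (ENSMUSG00000023088) on chromosome 16 (14361558 to 14475737) and Abcc4 (ENSMUSG00000032849) on chromosome 14 (118482692 to 118706219). Cfap43 overlaps Gsto1 on the opposite strand. It held 337 counts over the 9 W/W libraries against at least 277 for Gsto1 in each, and whether counting used strand is not given in the sources used here.

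RefSeq promoter windows on GRCm38.p6, from 250 bases before to 50 after a start, were found for 7 of the 8 genes. Both strands were searched for the core of the antioxidant response element, TGACNNNGC, found in 12.4% of 32851 mouse promoter windows, and for the metal response element core in the forms TGCACNC (12.6%) and TGCGCNC (15.4%). Both are elements named for responses that metals and oxidants can start, and a match is a match of letters only. At the upstream start of Abcc4 the window held the antioxidant core on the strand opposite the gene 25 bases before the start and TGCGCNC at 152 and 109 bases before it, while a second Abcc4 start held the antioxidant core 23 bases before. Aqp3 held TGCGCNC 13 bases before its start and TGCACNC 30 bases after it. None of the 3 motifs was found in the windows of Aqp7, Aqp9, As3mt, Gsto1 or Gstp1. The 250 bases before the start are given 5′ to 3′ on the strand of the gene for the gene that differed between the outcomes (Abcc4, chr14:118706220-118706469, minus strand), for the aquaporin with motif matches (Aqp3, chr4:41098184-41098433, minus strand) and, as a contrast without matches, for the gene that was lower in both outcomes (Gsto1, chr19:47854723-47854972, plus strand), with the motif matches in capitals.
Abcc4: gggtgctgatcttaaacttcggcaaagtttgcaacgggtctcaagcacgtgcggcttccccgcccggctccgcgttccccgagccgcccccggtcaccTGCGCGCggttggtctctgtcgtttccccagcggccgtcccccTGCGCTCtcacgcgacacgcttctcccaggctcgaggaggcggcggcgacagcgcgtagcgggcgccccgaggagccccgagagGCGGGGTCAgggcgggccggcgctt
Aqp3: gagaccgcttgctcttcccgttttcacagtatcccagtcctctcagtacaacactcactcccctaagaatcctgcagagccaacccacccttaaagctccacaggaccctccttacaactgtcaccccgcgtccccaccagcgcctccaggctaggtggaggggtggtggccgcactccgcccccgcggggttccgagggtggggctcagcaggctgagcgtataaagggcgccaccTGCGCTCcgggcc
Gsto1: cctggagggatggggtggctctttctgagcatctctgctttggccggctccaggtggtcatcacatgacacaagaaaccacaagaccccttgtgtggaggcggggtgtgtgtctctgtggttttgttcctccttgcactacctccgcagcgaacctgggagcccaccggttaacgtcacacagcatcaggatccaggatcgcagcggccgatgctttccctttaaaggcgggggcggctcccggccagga

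In W/W tumours the conjugating enzymes had the highest levels of the 8 genes. Per kilobase of exon, Gstp1 was first in all 3 groups, at 58.2 ± 44.6 CPM per kb (SD, n = 3) in water, 41.3 ± 15.3 in progressing and 33.2 ± 8.75 in regressing tumours, and Gsto1 was second at 48.0 ± 22.4, 17.3 ± 4.43 and 14.7 ± 6.09 (n = 3 each). The libraries of Gstp1 and Gsto1 overlapped in water and not in the other groups. In water the order went on with Aqp3 (13.9 ± 10.7 CPM per kb), As3mt (12.5 ± 10.7), Abcc4 (7.02 ± 2.17), Abcc1 (3.67 ± 1.91), Aqp9 (1.81 ± 2.05) and Aqp7 (0.165 ± 0.126). Of these neighbours in order, only Gsto1 and Aqp3, and Abcc4 and Abcc1, did not overlap between their libraries. In progressing tumours Abcc4 (8.02 ± 3.47 CPM per kb) came next after Gsto1 with no overlap, and from Abcc4 down each gene overlapped with the one below it: As3mt (3.22 ± 4.04), Abcc1 (1.93 ± 0.500), Aqp3 (1.57 ± 2.16), Aqp7 (0.437 ± 0.476) and Aqp9 (0.107 ± 0.0391). In regressing tumours As3mt (5.62 ± 0.277 CPM per kb) did not overlap with Abcc4 (2.92 ± 0.869), nor Abcc1 (1.40 ± 0.319) with Aqp9 (0.238 ± 0.124), while Abcc4, Aqp3 (2.35 ± 0.842) and Abcc1 overlapped in turn. Aquaporins changed places between groups: Aqp7 was 8th in water, 7th in progressing and 3rd in regressing tumours, at 6.20 ± 8.73 CPM per kb in the last. Aqp9 was 8th in both ATO groups. In regressing tumours the libraries of Aqp7 overlapped with those of the genes next to it in order, Gsto1 and As3mt, and its highest library had 46.0 CPM where the others had 2.10 and 4.51 CPM.

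**Figure D1:**
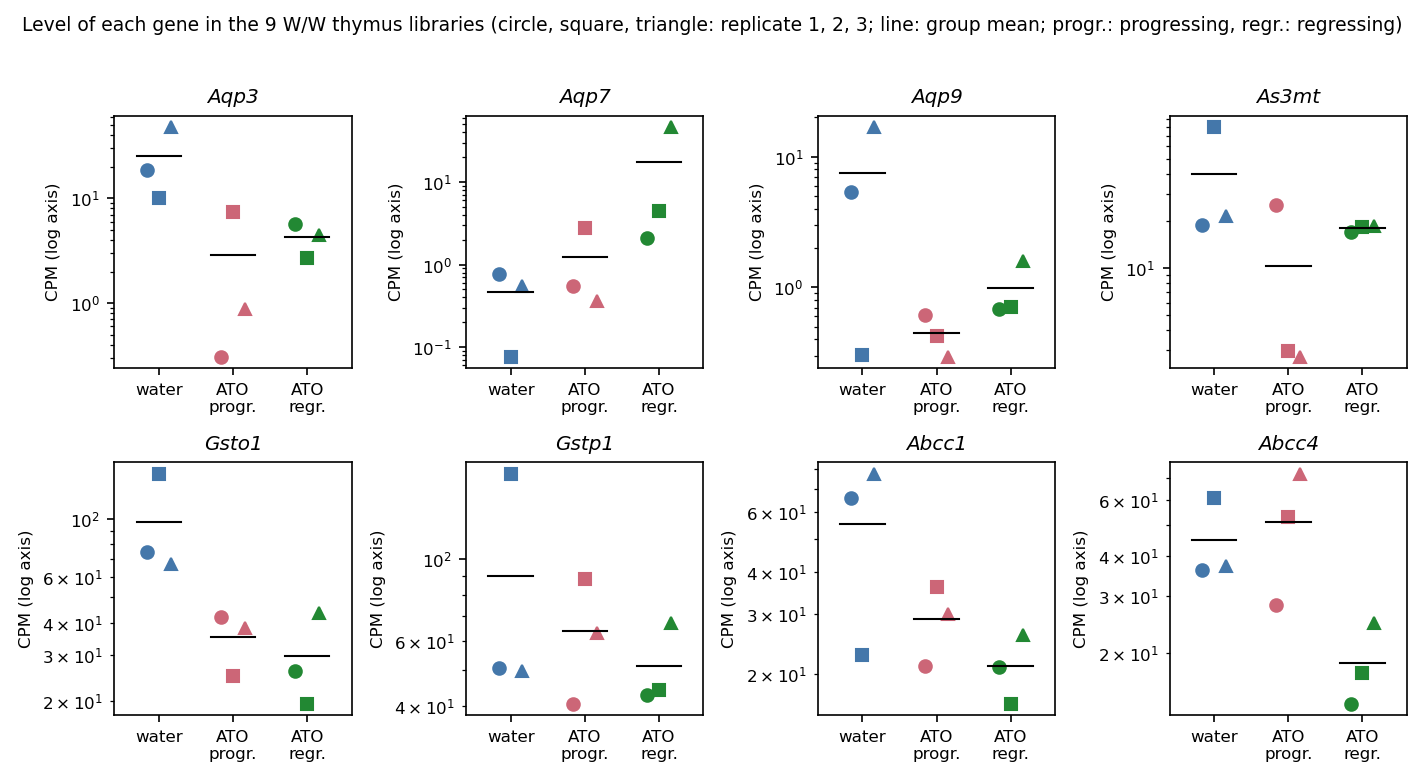
CPM of each of the 8 genes in the 9 W/W libraries, on a log axis that differs between panels, with the group mean as a line and symbols for replicates 1, 2 and 3. Water libraries of Gsto1 lie above all ATO libraries, Abcc4 is lowest in the 3 regressing libraries, and Aqp7 reaches 46.0 CPM in regressing replicate 3.

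The first comparison set regressing ATO tumours against water. Gsto1 was lower and Aqp7 higher, and the other 6 genes did not pass the quasi-likelihood test of edgeR at a p adjusted over all genes by the Benjamini-Hochberg method. That is 2 of 8, where 7.70% of the 18119 genes tested passed (4.57% lower, 3.13% higher). The median log2 fold change of the 8 was -1.33 and that of all genes -0.115, and 7 of the 8 had a negative value. The share of negative values among all genes was not counted. In 4 genes (Aqp3, As3mt, Gsto1 and Abcc4) every regressing library was below every water library and in Aqp7 every one was above, while 40.1% of all genes tested showed no overlap (20.8% lower, 19.3% higher).

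Aqp7, a channel for glycerol best known from fat cells, had 0.772, 0.0763 and 0.553 CPM in water replicates 1 to 3 and 2.10, 4.51 and 46.0 CPM in regressing replicates 1 to 3. All 3 regressing libraries were above all water libraries, and replicate 3 stood apart with 699 counts against 34 and 64 in the others. The log2 fold change was 5.19 (SE 1.38, edgeR adjusted p = 0.0476). None of the 6 fits that left out 1 library kept its call, where adjusted p ran from 0.0742 to 0.160, and the log2 fold change was 2.87 without regressing replicate 3. Under limma-voom the adjusted p was 0.104. Calls were lost widely in the fits without a library. Of all genes, 86, 60 and 546 passed without regressing replicates 1, 2 and 3, against 1396 with all libraries. Without water replicates 1, 2 and 3 the counts were 1072, 754 and 1190.

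Adipocyte markers were also higher in regressing tumours than in water, but did not follow Aqp7 in every library. All 12 had counts in the 3 regressing libraries, where they summed to 267, 758 and 5639 CPM, against 101, 172 and 113 CPM in water, where Lep was at 0 in all 3 libraries, Plin1 at 0 in replicates 2 and 3 and Retn at 0 in replicate 2. The 7 brown adipocyte markers summed to 31.4, 243 and 1995 CPM in regressing and to 3.73, 4.58 and 6.21 CPM in water, with Ucp1 at 0 in water replicate 2 and Elovl3 at 0 in water replicates 2 and 3. Regressing replicate 3 was the highest library in Aqp7 and in both lists. Among water libraries the adipocyte sum was highest in replicate 2, where Aqp7 was lowest at 0.0763 CPM. Progressing replicate 3 had a sum of 282 CPM with 0.366 CPM of Aqp7, against 267 and 2.10 CPM in regressing replicate 1. Fabp4 alone had 142 CPM in water replicate 2 and 239 CPM in progressing replicate 3. The mitochondrial share of counts there was 8.48%, against 2.08% and 2.96% in the other regressing libraries. The part of fat tissue in the result was not tested.

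**Figure D2:**
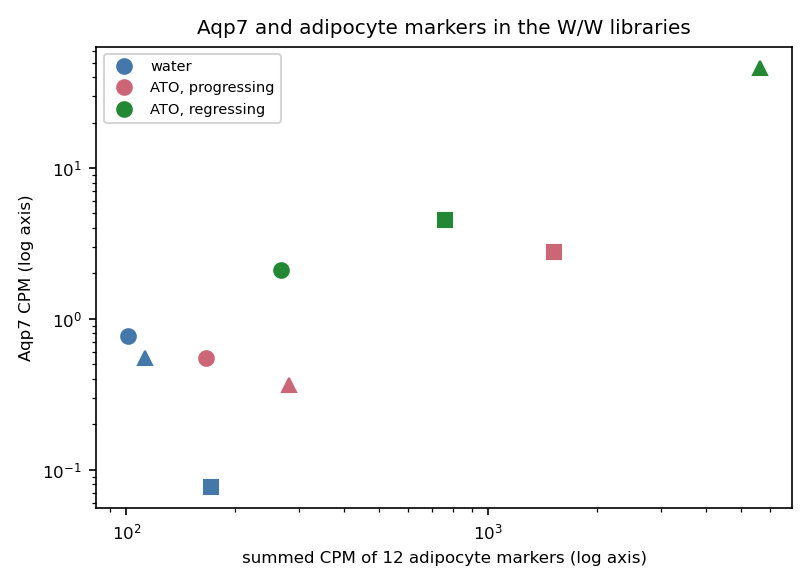
Aqp7 level (CPM, log axis) against the summed CPM of 12 adipocyte markers (log axis) in the 9 W/W libraries, coloured by group, with circle, square and triangle for replicates 1, 2 and 3. Regressing replicate 3 is highest on both axes (46.0 and 5639 CPM), and progressing replicate 2, with 1514 CPM of markers, has 2.78 CPM of Aqp7.

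Gsto1, glutathione transferase omega, had 74.7, 149 and 67.5 CPM in water and 26.1, 19.5 and 43.4 CPM in regressing tumours. No regressing library reached the lowest water library. The log2 fold change was -1.71 (SE 0.42, edgeR adjusted p = 0.0381). Of the 6 fits without 1 library, the call held in those without water replicate 1 or 3 and was lost without water replicate 2 (log2 fold change -1.18, adjusted p = 0.120) and without regressing replicates 1, 2 or 3 (adjusted p = 0.163, 0.180 and 0.0554). The summed level of 12 macrophage markers, a list not planned beside Gsto1, moved the same way. All 12 had counts in water, at a sum of 1954 to 3043 CPM. They summed to 695 to 1221 CPM in regressing tumours, with Marco at 0 in replicate 2. Adgre1 of this list overlapped, at 5.60, 35.9 and 15.8 CPM in water and 17.5, 10.0 and 18.4 CPM in regressing tumours. B cell markers, also not planned beside Gsto1, summed to 1578, 3217 and 285 CPM in water and to 208, 124 and 170 CPM in regressing tumours. T cell and thymocyte markers were higher instead. The part of these lists in the result was not tested.

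The other channels and the pumps had large differences with wide errors. Aqp3, which passes water and glycerol and is common in epithelia, had 18.8, 10.1 and 47.6 CPM in water and 5.74, 2.68 and 4.47 CPM in regressing tumours (a log2 change of -2.57, SE 1.01, edgeR adjusted p = 0.129, and -1.75 without water replicate 3). Aqp9, the main glycerol channel of liver and a channel of neutrophils, had 5.34, 0.305 and 16.8 CPM in water and 0.679, 0.705 and 1.58 CPM in regressing tumours (a log2 change of -2.92, SE 1.09, adjusted p = 0.112). Water libraries of Aqp9 spanned the regressing ones, because replicate 2 held 4 counts where the others held 83 and 274. Without that library the test passed, at -3.38 (edgeR adjusted p = 0.0389), and without water replicate 3 the value was -1.51 (adjusted p = 0.377).

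Abcc1 had 65.8, 22.8 and 77.4 CPM in water and 21.0, 16.4 and 26.1 CPM in regressing tumours (a log2 change of -1.39, SE 0.46, edgeR adjusted p = 0.0820). Again water replicate 2 was the library that overlapped, and without it the value was -1.67 and passed (adjusted p = 0.0290). Abcc4 had 36.3, 60.8 and 37.4 CPM in water and 13.9, 17.3 and 24.7 CPM in regressing tumours (-1.27, SE 0.42, adjusted p = 0.0827). For As3mt the 3 regressing libraries were close together at 17.0, 18.5 and 18.7 CPM, and water had 18.9, 79.6 and 21.5 CPM. Its log2 fold change was -1.15 (SE 0.84, adjusted p = 0.398), and without water replicate 2 it was -0.08. Gstp1, at 50.8, 170 and 49.8 CPM in water and 42.8, 44.3 and 67.0 CPM in regressing tumours, did not differ beyond its spread (-0.81, SE 0.50, adjusted p = 0.311).

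Water replicate 2 stood at 1 end of its group for each of the 8 genes. The share of all genes for which it did so was not counted. This library also differed from its group beyond the 8 genes, with counts in 21372 genes against 24909 and 27114 in the other water libraries. It was the highest water library for As3mt, Gsto1, Gstp1 and Abcc4 and the lowest for Aqp3, Aqp7, Aqp9 and Abcc1. Its 1044 counts of As3mt compare with 294 and 349 in the other water libraries. Gstp3, of the Gstp1 family, was highest there too, at 21.2 CPM against 5.08 and 10.5 CPM, and Gstp2 had at most 18 counts in a library.

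The second comparison set progressing ATO tumours against water. Aqp9 and Gsto1 were lower, 2 of the 8 genes where 11.9% of all genes tested passed (7.13% lower, 4.77% higher). The median log2 fold change of the 8 was -1.20 and that of all genes -0.0378. Aqp3 and Gsto1 were the 2 genes without overlap between the groups, a state shown by 26.6% of all genes (14.7% lower, 11.9% higher). This comparison uses the same 3 water libraries as the first, so their values are set side by side and no overlap between them is read.

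Aqp9 had 0.615, 0.422 and 0.293 CPM in progressing tumours, from 10, 5 and 4 counts. These low values lay around the lowest water library (0.305 CPM) and below the other water libraries (5.34 and 16.8 CPM). The log2 fold change was -4.05 (SE 1.16, edgeR adjusted p = 0.0464). The call held in 1 of the 6 fits without a library, that without water replicate 2 (-4.57, adjusted p = 0.00835), and the value was -2.66 (adjusted p = 0.164) without water replicate 3 and -4.24 (adjusted p = 0.0699) without water replicate 1. It was also lost without progressing replicates 1, 2 or 3 (adjusted p = 0.0910, 0.115 and 0.140), and under limma-voom (0.253). The 13 neutrophil markers summed to 43.3, 60.7 and 105 CPM in water and to 17.0, 92.8 and 5.50 CPM in progressing tumours, with Elane at 0 in progressing replicates 1 and 3, Ltf at 0 in replicate 3, and Elane and Mmp8 at 0 in water replicate 1. The 6 hepatocyte markers summed to 5.28, 0.381 and 25.9 CPM in water and to 6.39, 16.3 and 71.0 CPM in progressing tumours. Alb, Fgb and Ttr were at 0 in water replicate 2. Macrophage markers summed to 2622, 3043 and 1954 CPM in water and to 1557, 1655 and 368 CPM in progressing tumours. The part of these 3 lists in the result was not tested.

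Gsto1 had 42.1, 24.97 and 38.0 CPM in progressing tumours, below all 3 water libraries (log2 fold change -1.47, SE 0.42, edgeR adjusted p = 0.0467). The call was lost in all 6 fits without a library, with adjusted p from 0.0523 to 0.126, and under limma-voom (0.0586). Over these 6 fits 907 to 2557 of all genes passed, against 2157 with all libraries. Macrophage markers summed to 1557, 1655 and 368 CPM here, with all 12 present in each library, against 1954 to 3043 CPM in water. Adgre1 of this list again overlapped with water, at 31.1, 18.1 and 8.35 CPM. B cell markers, at 4.18, 34.2 and 11.1 CPM, were again below water, and T cell and thymocyte markers above it. The part of these lists in the result was not tested.

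Aqp3 was unequal within the progressing group, at 0.307, 7.42 and 0.879 CPM, all below the lowest water library at 10.1 CPM. Its log2 fold change was -3.16 (SE 1.04, edgeR adjusted p = 0.0740). The test passed without progressing replicate 2, at -5.35 (edgeR adjusted p = 0.0135), and without water replicate 3 the value was -2.35 (adjusted p = 0.209). As3mt was unequal too, at 25.3, 2.95 and 2.71 CPM, so that replicate 1 lay within the water range and the others far below it. The log2 fold change of As3mt was -1.95 (SE 0.86, adjusted p = 0.166), and the test passed without progressing replicate 1, at -3.82 (adjusted p = 0.0164). Without water replicate 2 it was -0.91 (edgeR adjusted p = 0.503).

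The remaining genes overlapped with water. Abcc1 had 21.1, 36.1 and 30.0 CPM (log2 fold change -0.93, SE 0.45, edgeR adjusted p = 0.204), which became -1.29 (adjusted p = 0.0322) without water replicate 2. Abcc4 had 28.2, 53.2 and 72.3 CPM (0.19, SE 0.41, adjusted p = 0.800) and Aqp7 0.553, 2.78 and 0.366 CPM (1.35, SE 1.25, adjusted p = 0.517). Gstp1, at 40.6, 88.1 and 63.2 CPM, had a log2 fold change of -0.49 (SE 0.50, adjusted p = 0.558).

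The third comparison set the ATO-treated outcomes against each other. Abcc4, the exporter MRP4, was lower in regressing tumours, and it was the only 1 of the 8 genes to pass, where 12.6% of all genes did (6.18% lower, 6.45% higher). The median log2 fold change of the 8 was 0.176 and that of all genes -0.0676. Abcc4 was below all progressing libraries in every regressing library, and Aqp9 was above them, while 42.0% of all genes had no overlap (20.6% lower, 21.4% higher).

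Regressing tumours had 13.9, 17.3 and 24.7 CPM of Abcc4 and progressing tumours 28.2, 53.2 and 72.3 CPM. The highest regressing library and the lowest progressing library were close, at 24.7 and 28.2 CPM. The log2 fold change was -1.46 (SE 0.42, edgeR adjusted p = 0.0458). The call held in the fit without progressing replicate 1 (-1.75, adjusted p = 0.0276) and was lost in the other 5, at -1.40 (adjusted p = 0.0862) without progressing replicate 2, -1.13 (0.144) without progressing replicate 3, and adjusted p = 0.177, 0.153 and 0.0792 without regressing replicates 1, 2 and 3. Under limma-voom the adjusted p was 0.0656. Of all genes, 177, 312 and 549 passed without regressing replicates 1, 2 and 3, against 2289 with all libraries. Without progressing replicates 1, 2 and 3 the counts were 2000, 1362 and 531. The summed level of the 8 fibroblast markers, a list not planned beside Abcc4, also separated the outcomes. All 8 had counts in every library, at sums of 809, 1618 and 1126 CPM in progressing and 163, 137 and 458 CPM in regressing tumours. In water the sums were 594, 356 and 1005 CPM, and Abcc4 was at 36.3, 60.8 and 37.4 CPM, highest where the sum was lowest. Within the progressing group the highest sum was in replicate 2 and the highest Abcc4 in replicate 3. The part of fibroblast markers in the result was not tested.

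Among the channels, Aqp7 had the largest fitted difference between outcomes (3.83, SE 1.29, edgeR adjusted p = 0.0730), and it was 1.53 without regressing replicate 3. Progressing replicate 2, the highest of its group at 2.78 CPM, was the progressing library with the most adipocyte marker counts, 1514 CPM against 166 and 282 CPM. Aqp9 was at 1.13 (SE 1.09, adjusted p = 0.498) and Aqp3 at 0.59 (SE 0.98, adjusted p = 0.708), or 2.89 (adjusted p = 0.0675) without progressing replicate 2. Epithelial markers, all 11 present in each library, were at 65 to 161 CPM in progressing and 1437 to 1689 CPM in regressing tumours, while Aqp3 was at 0.307 to 7.42 CPM and 2.68 to 5.74 CPM.

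As3mt differed by 0.80 (SE 0.84, edgeR adjusted p = 0.539), and by 2.67 (adjusted p = 0.0405) without progressing replicate 1. Abcc1 (-0.46, SE 0.45, adjusted p = 0.508), Gsto1 (-0.24, SE 0.41, adjusted p = 0.718) and Gstp1 (-0.32, SE 0.50, adjusted p = 0.691) did not pass. A p that misses the threshold does not show that the outcomes were alike for these genes.

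**Figure D3:**
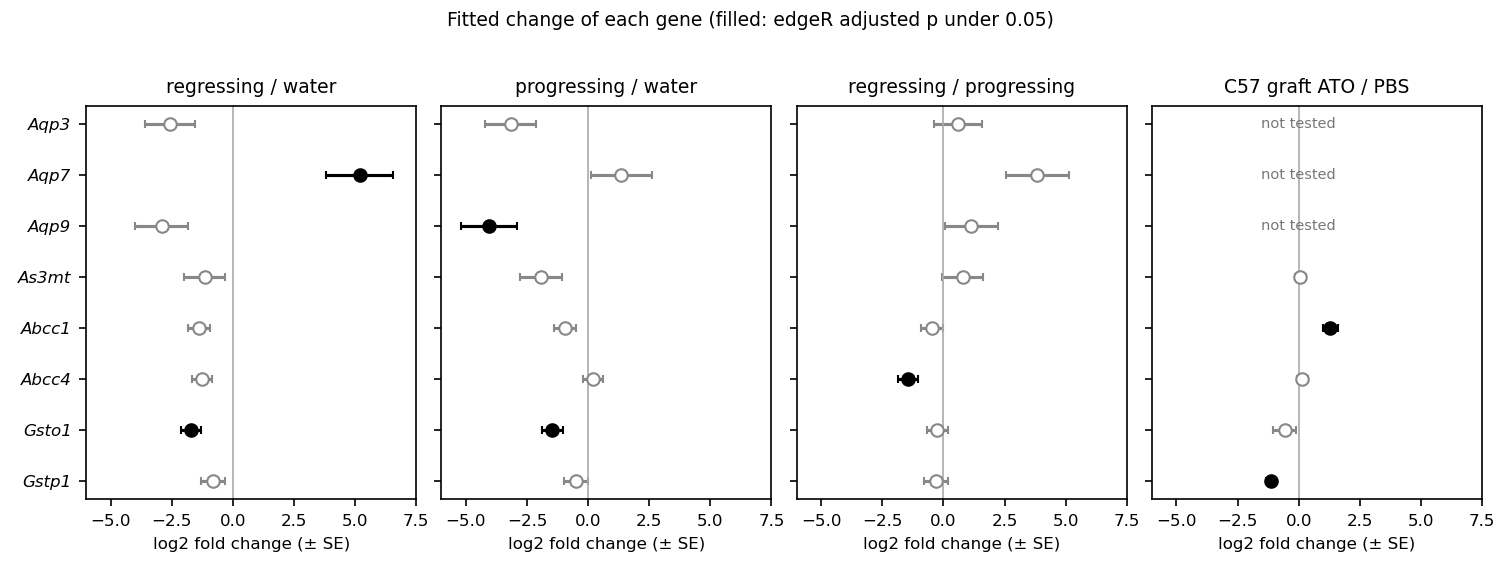
Fitted log2 fold changes of the 8 genes with their standard errors in 4 comparisons. Filled points passed edgeR's test, which are Aqp7 and Gsto1 in regressing against water, Aqp9 and Gsto1 in progressing against water, Abcc4 between the outcomes, and Abcc1 and Gstp1 in the C57 tumours, where the 3 aquaporins were not tested.

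When both ATO groups were set together against water, 3 of the 8 genes were lower, Aqp3, Aqp9 and Gsto1, where 10.9% of all genes passed (7.30% lower, 3.57% higher). Gsto1 was at a log2 fold change of -1.59 (SE 0.34, with edgeR adjusted p = 0.0176), Aqp9 -3.48 (SE 0.87, adjusted p = 0.0295) and Aqp3 -2.86 (SE 0.80, adjusted p = 0.0458). All 6 ATO libraries were below the 3 water libraries for Aqp3 and Gsto1, and 12.3% of all genes showed no overlap (6.17% lower, 6.12% higher). Abcc1 was at -1.16 (SE 0.37, adjusted p = 0.0722), As3mt at -1.55 (SE 0.69, adjusted p = 0.169), Abcc4 at -0.54 (SE 0.35, adjusted p = 0.336), Gstp1 at -0.65 (SE 0.42, adjusted p = 0.331) and Aqp7 at 3.27 (SE 1.22, adjusted p = 0.107).

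Over the 9 fits without a library, 656 to 2099 of all genes passed, against 1968 with all libraries. The Gsto1 call held in 6 of these 9 fits. It was lost without water replicate 2 (-1.09, adjusted p = 0.0819), regressing replicate 1 (adjusted p = 0.0537) or regressing replicate 2 (adjusted p = 0.0547). Aqp9 held without water replicate 1 or 2 and was lost in the other 7 fits (adjusted p up to 0.176), with a value of -2.08 without water replicate 3, and it was lost under limma-voom (adjusted p = 0.221). Aqp3 held without water replicate 2 or progressing replicate 2 and was lost in the other 7 (adjusted p up to 0.183), with a value of -2.05 without water replicate 3 and -3.91 without progressing replicate 2. Abcc1 passed without water replicate 2 (-1.48, adjusted p = 0.0160) and As3mt without progressing replicate 1 (-2.48, adjusted p = 0.0198). Without water replicate 2 As3mt was at -0.49 (edgeR adjusted p = 0.724).

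In the C57 tumours the methylating enzyme and the conjugating enzyme were well expressed and the channels were not. Aqp3 had 0 and 4 counts in the PBS libraries and 2 and 7 in the ATO libraries, Aqp7 had 2 and 4 against 9 and 4, and Aqp9 had 2 and 4 against 1 and 0. These 3 genes did not pass the filter on low counts, so 5 of the 8 were tested. Per kilobase Gstp1 was first (52.2 ± 8.23 CPM per kb after PBS and 23.8 ± 0.663 after ATO, SD, n = 2), then As3mt (12.5 ± 0.396 and 13.0 ± 2.49), Abcc4 (5.89 ± 0.318 and 6.52 ± 0.0829), Gsto1 (5.50 ± 2.39 and 3.69 ± 1.98) and Abcc1 (0.739 ± 0.0457 and 1.80 ± 0.446). Neighbours among these 5 did not overlap, with the exception of Abcc4 and Gsto1 after PBS.

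ATO and PBS tumours differed in 2 of the 5 tested genes, where 13.9% of 15468 genes passed (7.37% higher, 6.57% lower). Gstp1 had 89.8 and 71.8 CPM after PBS and 37.6 and 36.2 CPM after ATO, a log2 change of -1.13 (SE 0.22, edgeR adjusted p = 0.0115). Abcc1 had 11.6 and 10.7 CPM after PBS and 22.4 and 31.9 CPM after ATO, a log2 change of 1.28 (SE 0.30, adjusted p = 0.0214). The Gstp1 call was lost without PBS replicate 1 (-0.97, adjusted p = 0.0523) and held in the other 3 fits. The Abcc1 call was lost without PBS replicate 1 (adjusted p = 0.0724), PBS replicate 2 (0.0714) or ATO replicate 2 (0.0579).

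As3mt had 41.1 and 39.3 CPM after PBS and 36.2 and 47.5 CPM after ATO (0.06, SE 0.23, edgeR adjusted p = 0.883). Abcc4 had 36.2 and 39.1 against 42.0 and 41.3 CPM (0.15, SE 0.22, adjusted p = 0.686), and Gsto1 14.5 and 7.71 against 4.64 and 10.3 CPM (-0.57, SE 0.46, adjusted p = 0.427). Gstp1, Abcc1 and Abcc4 had no overlap between treatments, as did 61.7% of all genes in this design of 2 against 2 (30.1% lower, 31.6% higher). The medians of the 5 genes and of all genes were 0.0608 and 0.0405.

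Other features of the C57 libraries moved with treatment. The mitochondrial share was 0.521% and 1.02% after PBS and 5.98% and 4.03% after ATO. Leaving out the mitochondrially encoded genes gave -1.13 for Gstp1 and 1.29 for Abcc1, and both passed. Macrophage markers, of which Marco was at 0 in both PBS libraries and in ATO replicate 1 and Cd163 in both ATO libraries, summed to 974 and 742 CPM after PBS and 459 and 403 CPM after ATO. The summed level of the 14 T cell and thymocyte markers was lower after ATO, with no overlap, at the sums given above. Single markers of the list differed from the sum. Cd4 was higher after ATO, at 98.8 and 55.5 CPM after PBS and 173 and 147 CPM after ATO. Cd3e and Cd8a overlapped between treatments. All 8 fibroblast markers were present, at 658 and 396 against 754 and 1785 CPM. The part of these cells in the results was not tested.

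In U937 cells the pattern of levels was again led by GSTP1, and the channels had few or no counts. AQP3 and AQP7 had 0 counts in both libraries, which allows up to 0.168 CPM after PBS and 0.182 CPM after ATO (3 counts of the total). AS3MT had 4 counts in each. With 1 library a treatment no test can be made, so ratios of CPM are given with exact binomial (Clopper-Pearson) 95% intervals, which cover counting error only.

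ABCC4 (GRCh38 chromosome 13, 95019835 to 95301475) had 1492 counts (83.5 CPM) after PBS and 684 counts (41.6 CPM) after ATO, a ratio of PBS to ATO of 2.01 (1.83 to 2.20). AQP9 (chromosome 15, 58138169 to 58185911) had 4 counts (0.224 CPM) after PBS and 42 counts (2.55 CPM) after ATO, a ratio of ATO to PBS of 11.4 (4.14 to 43.8). ALDH1A2, which overlaps it on the opposite strand, had 25 counts over both libraries. GSTO1 went from 59.1 to 96.9 CPM (1.64, 1.52 to 1.77) and ABCC1 from 74.2 to 103 CPM (1.39, 1.29 to 1.5). GSTP1, at 283 and 297 CPM (1.05, 1.01 to 1.09), was the most abundant of the 8 in both libraries.

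Of the 5 genes whose mean reached 1 CPM, 2 differed by at least 2-fold, AQP9 higher and ABCC4 lower, where 29.3% of 13722 genes did (19.1% higher, 10.2% lower). The median log2 ratio with a pseudocount of 1 CPM was 0.471 for the 5 and 0.133 for all genes. These ratios are not scaled by TMM, whose factors were 0.935 after PBS and 1.07 after ATO, so that scaling lowers each ratio of ATO to PBS. With TMM scaling the log2 ratio of GSTP1 turned from above 0 to -0.12. ABCC1, ABCC4 and GSTO1 each left their counting interval in 1 alternative setting, with the direction kept. AQP9 left its interval in 3 alternative settings and stayed within it in 1, also with the direction kept. Its log2 ratio with the pseudocount of 1 CPM was 1.54, below the counting interval of its ratio, which uses no pseudocount.

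**Figure D4:**
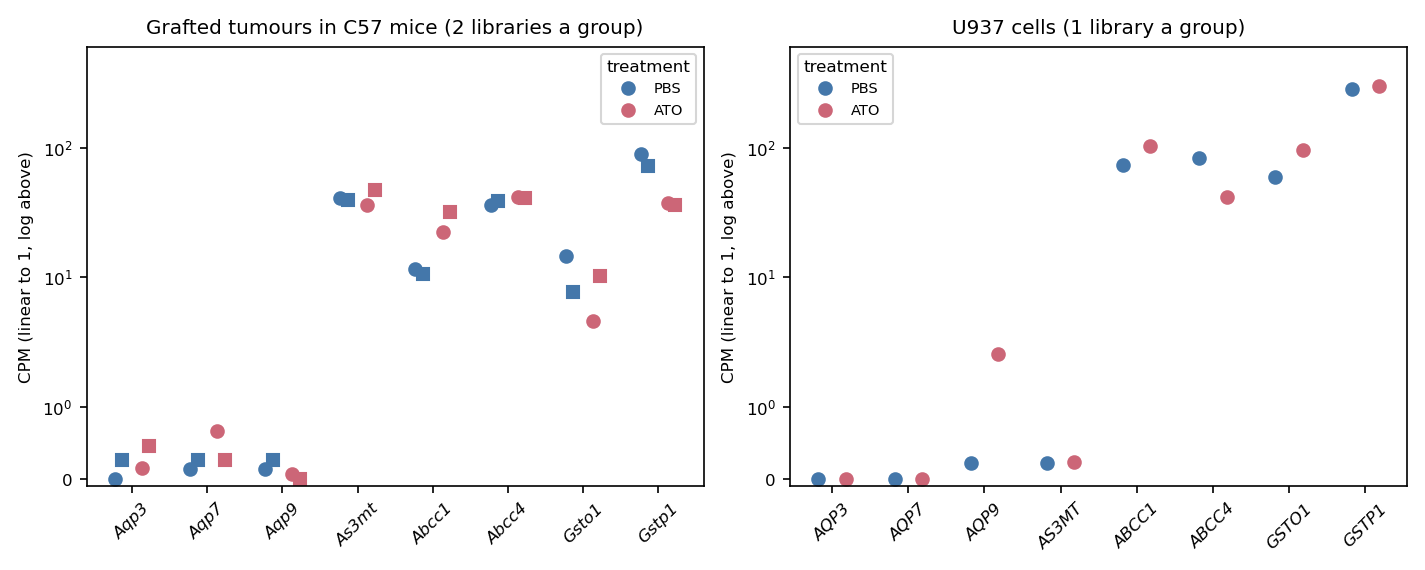
CPM of the 8 genes in the C57 tumours (2 libraries a treatment, circle and square for replicates 1 and 2) and in U937 (1 library a treatment), on an axis that is linear up to 1 CPM and logarithmic above. The 3 aquaporins lie below 1 CPM in the C57 tumours, Gstp1 is lower and Abcc1 higher after ATO there, and in U937 the ATO library has 2.55 CPM of AQP9 and 41.6 CPM of ABCC4.

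Set side by side, the systems gave values in different directions for some genes. Abcc1 was higher after ATO in the C57 tumours and had 1.39 times the PBS level in U937, while its fitted values were negative in both W/W comparisons with water. Gsto1 was lower in both ATO groups of W/W mice, and in U937 GSTO1 had 1.64 times the PBS level. The U937 ratios are not scaled by TMM, and the mouse values are. The tables come from separate designs, and differences between systems were not tested.

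Genes whose levels ran most like a member over the 9 W/W libraries were sought among 10539 genes whose mean reached 10 CPM, by Pearson's r of log2 levels. The points share the libraries and their scaling, and r describes these 9 libraries only. For Aqp7 the 3 nearest were Adrb3 (r = 0.987), Acadm (0.977) and Plin1 (0.972), for As3mt Mir17hg (0.990), Hmox2 (0.968) and Ubl4a (0.966), and for Aqp9 1700006J14Rik (0.988), Ccr10 (0.979) and Rap2a (0.960). For Gsto1 they were Got1 (0.983), Rnf149 (0.974) and Tnfaip1 (0.970), for Abcc4 Atp6v1c1 (0.980), Itgb3bp (0.966) and Elp4 (0.963), and for Gstp1 Smdt1 (0.970), Gm10243 (0.958) and Pih1d1 (0.956). Aqp3 was nearest to H2-Eb2 (0.958), Il18rap (0.949) and Rasgef1b (0.946), and Abcc1 to Kcnf1 (0.940), Ddx43 (0.922) and Col6a3 (0.921). Plin1, which coats lipid droplets, is also 1 of the 12 adipocyte markers.

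The wider pathway was read from 5 lists with 99 genes: other aquaporins and carriers of arsenite or arsenate, the methyl donor cycle and other methyltransferases, glutathione synthesis and thioredoxin, other glutathione transferases, and other export pumps. Among the carriers tested in W/W tumours, 2 of 11 were higher and 1 lower in regressing against water, 1 higher and 1 lower in progressing against water, and 1 higher between the outcomes. Of all genes tested, 3.13%, 4.77% and 6.45% were higher and 4.57%, 7.13% and 6.18% lower in these 3 comparisons. The medians were -0.50, -0.13 and 0.75, against -0.115, -0.0378 and -0.0676 for all genes.

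Aqp11, an aquaporin of intracellular membranes, was the gene of the list with the largest rise. Water tumours had 0.855 ± 0.487 CPM of it (SD, n = 3), against 56.2 ± 37.7 in progressing and 293 ± 99.2 in regressing tumours. It was 334-fold higher in regressing tumours than in water (log2 fold change 8.39, SE 0.86, edgeR adjusted p = 0.00203) and 64.1-fold higher in progressing tumours (6.003, SE 0.78, adjusted p = 0.00240). All 6 fits without a library kept each of these calls, and the higher level in regressing than in progressing tumours (2.38, SE 0.64, adjusted p = 0.0377) held in 1 of 6. The summed level of T cell and thymocyte markers had the same order of groups, and its part in the result was not tested.

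Other carriers were glucose transporters. Slc2a3 was lower than in water (68.2 ± 11.2 CPM, SD, n = 3) in progressing (23.6 ± 10.7) and regressing tumours (24.9 ± 1.55), with log2 fold changes of -1.53 and -1.45. Slc2a4, the insulin-responsive glucose transporter of fat and muscle, was higher in regressing tumours (47.0 ± 51.2 against 3.66 ± 2.17 CPM in water, log2 fold change 3.68, edgeR adjusted p = 0.0415). The calls for Slc2a4 and Slc2a3 in regressing against water were each lost in all 6 fits without a library, and Slc2a4 was at 2.38 without regressing replicate 3. The adipocyte markers summed to 267, 758 and 5639 CPM in regressing and to 101 to 172 CPM in water tumours, and their part in the Slc2a4 result was not tested.

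In the methyl donor cycle, which supplies the methyl groups used by As3mt, no gene of 16 was higher and 4 were lower in regressing against water, 2 were lower in progressing against water and 3 were lower in regressing than in progressing tumours. The shares of all genes that were lower were 4.57%, 7.13% and 6.18%. The medians of the list were -0.15, 0.22 and -0.55, against -0.115, -0.0378 and -0.0676 for all genes. Shmt2, the mitochondrial serine hydroxymethyltransferase, had 409 ± 168 CPM (SD, n = 3) in water, 161 ± 49.4 in progressing and 56.9 ± 3.55 in regressing tumours. The change from water to regressing tumours was -2.84 in log2 units (SE 0.38, with edgeR adjusted p = 0.00531), and this call held in all 6 fits without a library. Shmt1, its cytosolic counterpart, was at -2.36 and Mthfd1, a folate enzyme, at -1.97 in the same comparison, and each held in 4 of 6 fits.

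Of 20 glutathione genes tested, 1 was lower and none higher in regressing against water, 1 higher and 1 lower in progressing against water, and 2 higher and 2 lower between the outcomes, where 7.70%, 11.9% and 12.6% of all genes passed in either direction. The medians were -0.35, -0.21 and -0.57, against -0.115, -0.0378 and -0.0676 for all genes. Ggt5, a gamma-glutamyl transferase family member, was at 15.1 ± 9.05 CPM (SD, n = 3) in water, 1.11 ± 0.235 in progressing and 16.8 ± 3.36 in regressing tumours. Its log2 fold changes of -3.76 in progressing against water and 3.91 in regressing against progressing held in all fits without a library, the first at -3.16 without water replicate 3. Ggt7, of the same family, had 3.51 ± 1.00, 17.0 ± 1.09 and 4.89 ± 1.76 CPM in the same order of groups, and its rise of 2.27 in progressing against water held in all 6 fits.

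Of 21 other glutathione transferases tested, none passed edgeR's test in regressing against water (1 had an unadjusted p under 0.05), 2 were lower in progressing against water and 1 was higher in regressing than in progressing tumours, against the same 7.70%, 11.9% and 12.6% of all genes. The medians were 0.19, -0.63 and 0.46, beside -0.115, -0.0378 and -0.0676 for all genes. Gstt1 and Gstt3 fell in progressing against water by 2.99 and 2.61 on the log2 scale, and these calls held in 2 and 3 of 6 fits without a library, Gstt1 at -3.88 without progressing replicate 2.

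Among 13 other export pumps, 1 was higher in regressing against water, 1 was lower in progressing against water and 1 was higher in regressing than in progressing tumours, where 7.70%, 11.9% and 12.6% of all genes passed. The medians, -0.40, -0.03 and -0.04, stood beside -0.115, -0.0378 and -0.0676 for all genes. Abcc5, an exporter of cyclic nucleotides, had 48.4 ± 15.3 CPM (SD, n = 3) in water, 70.2 ± 22.5 in progressing and 268 ± 85.9 in regressing tumours. Its log2 fold changes were 2.46 (SE 0.39, edgeR adjusted p = 0.0106) against water and 1.93 (SE 0.38, adjusted p = 0.0179) against progressing tumours, opposite in sign to those of Abcc4. The first held in 4 and the second in 3 of 6 fits without a library.

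In the C57 tumours 4 of 13 other pumps were higher after ATO and none lower, where 7.37% of all genes tested were higher and 6.57% lower. Abcc5 had 26.5 ± 2.72 CPM (SD, n = 2) after PBS and 64.0 ± 4.11 after ATO (log2 fold change 1.27, SE 0.22, edgeR adjusted p = 0.00879), and its call held in all 4 fits without a library. Abcc9 (1.56) and Abca1 (1.24) also rose, and held in 2 and 1 of 4 fits. Of 15 other glutathione transferases none passed (2 had an unadjusted p under 0.05), with a median of -0.52 against 0.0405 for all genes. Values were negative in 14 of them, and the share of negative values among all genes was not counted. In the glutathione list 2 of 20 were lower and none higher, Txn2 (-1.10), the mitochondrial thioredoxin, and Prdx1 (-0.87), a peroxiredoxin. The carriers had 1 of 8 higher, the phosphate transporter Slc20a1 (0.93), and the methyl donor list had 2 of 15 higher and 1 lower. The same 7.37% and 6.57% of all genes stand beside these counts.

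**Figure D5:**
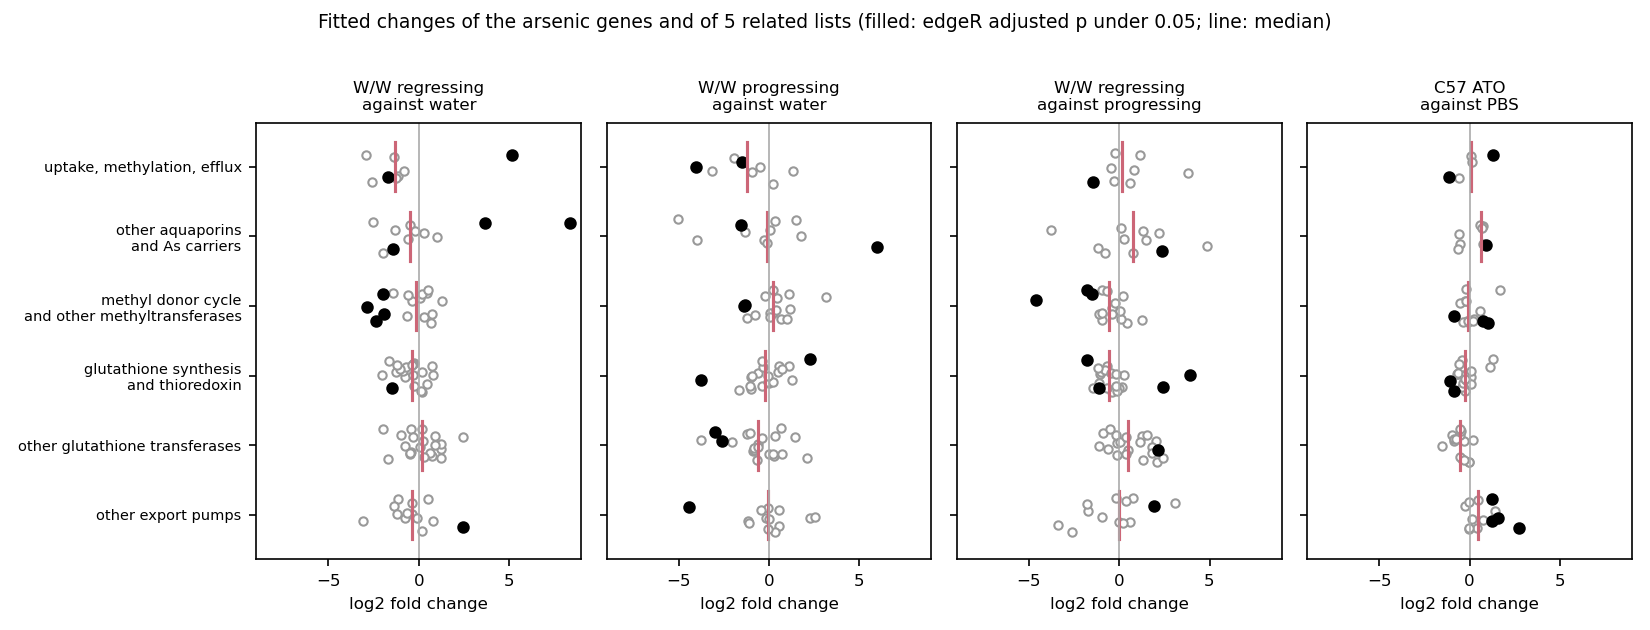
Fitted log2 fold changes of the 8 genes and of the 5 related lists in 4 comparisons, with 1 point a gene, filled where edgeR's test passed, and the list median as a line. Aqp11 is the point at 8.39 in regressing against water, no filled point of the methyl donor list is above 0 in the W/W comparisons, and the filled pumps of the C57 tumours are all above 0.

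In U937 the glutathione list had 6 of 20 genes at least 2-fold higher and 3 lower after ATO, where 19.1% of all genes were higher and 10.2% lower by that much, with a median log2 ratio of 0.660 against 0.133 for all genes. SLC7A11, which imports cystine for glutathione synthesis, went from 36.1 to 289 CPM, a ratio of 8.01 (7.38 to 8.71). CHAC1, which degrades glutathione, went from 3.19 to 23.5 CPM (7.37, 5.57 to 9.92). TXNRD3, a thioredoxin reductase, had 22.8 CPM after PBS and 3.65 CPM after ATO, and the counting interval of the ratio of PBS to ATO was 4.75 to 8.33.

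Of the methyl donor list in U937, 3 of 15 were at least 2-fold higher and 2 lower, again beside 19.1% and 10.2% of all genes, which also stand beside the next counts. CTH, which makes cysteine from cystathionine, had a ratio of 4.02 (3.62 to 4.48), and N6AMT1, a methyltransferase that has also been linked to arsenic methylation, had 14.5 CPM after PBS and 3.04 CPM after ATO. Of 6 other carriers 2 were higher and none lower. The glucose transporter SLC2A3 had a ratio of 3.55 (3.22 to 3.92), and the aquaporin AQP8, named after its values were seen, had 0 counts after PBS, which allows up to 0.168 CPM, and 96 counts (5.83 CPM) after ATO. Among 9 other pumps 4 were higher and 1 lower, ABCB10 of the mitochondrial inner membrane, which had 214 and 50.9 CPM. Of 9 other glutathione transferases 2 were higher, with GSTA4 at a ratio of 3.52 (2.76 to 4.53).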

How the data were processed

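Raw read counts per gene and FPKM values were deposited by the authors in a separate table for each system. FastQC 0.10.1, cutadapt 1.9.1 and HISAT2 2.0.1 are named per the submitters' processing notes. Which program counted the reads, whether it used strand and which annotation it read are not given in the sources used here. Per the labels' protocols, total RNA was extracted with TRIzol and sequenced from a SMARTer mRNA-Seq kit. The same text holds a passage on cultured cells fed dexamethasone and insulin, so how far it applies to these samples is not known. The FPKM values deposited by the authors were used only to check totals, which exceeded the summed counts by 0.106% to 2.33% in the W/W table.

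Coordinates of the W/W table matched GRCm38 (99.4% of genes as in GENCODE vM21) and those of U937 GRCh38 (98.2%, v44). Those of the C57 table did not match GRCm38 (2.83%), and none is printed. Tests on counts used edgeR 4.0.16 (R 4.3.3; filterByExpr, TMM, quasi-likelihood, Benjamini-Hochberg over all genes tested, threshold 0.05), the 9 W/W samples as 3 groups and the 4 C57 samples alone. Standard errors were taken from the fold change and the F statistic. Levels per kilobase use the deposited exonic gene size. U937 ratios use total counts and intervals by SciPy 1.17.1. A gene at 0 was given the limit of 3 counts of the total. Reads carry no molecular identifiers, so intervals cover counting error only.

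On simulated counts the regressing and water design of 18119 genes recovered 0 of 58 genes changed by 1 on the log2 scale, 11.0% of 73 changed by 2 and 63.8% of 69 changed by 4. The C57 design of 15468 genes recovered 25.7%, 68.1% and 95.1% at the same sizes. Recovered genes in the C57 design were 18, 47 and 58, beside 16 false calls among genes left unchanged. In the regressing and water design they were 0, 8 and 44, beside 4 false calls.

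The 8 genes, the 5 related lists and the 12 marker lists were chosen with earlier results of these data known. All 8 are named in each comparison. Of a related list, the rule allows up to 3 genes a direction that passed the test, largest change first, with 1 CPM or more on average, and in U937 the 3 largest ratios with at least 10 CPM in a library. Marker lists not named in the report (endothelium, skeletal muscle and red blood cell) were summed too. Alternatives were other scalings, DESeq2 1.42.0, limma-voom (limma 3.58.1), other filters, a replicate block, fits of the compared groups only and fits without each library.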

Additional observations from a re-analysis of the deposited data

Results flagged for a closer look

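Abcc4, the exporter MRP4, differed between the outcomes under the same treatment when that difference was tested directly, with a log2 fold change of -1.46 in regressing against progressing tumours (edgeR adjusted p = 0.0458). It was the only 1 of the 8 genes to pass in this comparison, where 12.6% of all genes tested did, and its call was lost in 5 of the 6 fits that left out 1 library. Over those 6 fits 177 to 2000 of all genes passed, against 2289 with all libraries.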

How the results depend on the processing

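With all libraries, 2, 2, 1 and 3 of the 8 genes passed in regressing against water, progressing against water, regressing against progressing and both outcomes against water. Of all 18119 genes tested, 1396, 2157, 2289 and 1968 passed in the same order. Scaled by library size alone, 1, 0, 0 and 3 of the 8 passed, beside 1292, 2058, 2255 and 1777 of all genes. DESeq2 gave 6, 3, 2 and 5, beside 3354, 3733, 4121 and 3470 of all genes. Limma-voom gave 1, 1, 0 and 2, beside 1437, 1647, 1989 and 1532. No filter on low counts gave 4, 4, 2 and 5, beside 2689, 3594, 3621 and 3273 of 34428 genes. Fitting only the compared groups gave 1 and 0 in the first 2 comparisons, beside 1734 and 882 of all genes. Aqp7 and Aqp9 were not tested in the second. For both outcomes that fit is the same as the one reported and was not repeated. With both outcomes as 1 group, an alternative chosen after seeing the data, 1 passed, beside 366 of all genes. Over fits without 1 library, the counts ranged from 0 to 2, 0 to 2, 0 to 2 and 0 to 3, and in the C57 tumours from 0 to 2.

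Same-numbered W/W libraries did not deviate together (correlations from -0.124 to 0.136), so the numbers were not taken to pair them. A replicate block left 0, 0, 1 and 1 of the 8 genes and 956, 1405, 1597 and 1230 of all genes, against 1396, 2157, 2289 and 1968 without it. In the C57 tumours the correlation was -0.130, and a block on crossed numbers, chosen after seeing the data, gave 3298 genes against 1350 with the block as numbered and 2157 without, with 2 of the tested genes called in each.

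Over fits without 1 library Gstp1 ranged from -1.10 to 0.11 in regressing, from -0.79 to 0.35 in progressing and from -0.95 to 0.23 in both outcomes against water, above 0 without water replicate 2 only, and from -0.56 to 0.0140 between the outcomes, above 0 without progressing replicate 2 only. Abcc4 in progressing against water ranged from -0.13 (without progressing replicate 3) to 0.49, and As3mt in the C57 tumours from -0.17 (without ATO replicate 2) to 0.23. With both of the W/W libraries of low TMM factor left out, chosen after seeing the data, 2 of the 8 genes passed between the outcomes, Gstp1 was 0.0996, 0.0515, 0.0481 and 0.0756 in the 4 comparisons, and Aqp7 in progressing against water was -0.50. GSTP1 in U937 was -0.12 with TMM scaling. The causes were not tested. Library size alone moved the median log2 fold change of all genes from -0.115 to 0.0885 in regressing against water, from -0.0676 to 0.132 between the outcomes and from 0.0405 to 0.235 in the C57 tumours, where 1800 genes were then higher and 520 lower, against 1140 and 1017.

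Counts of all genes passing ranged over the alternatives from 60 to 3354, from 882 to 3733, from 177 to 4121 and from 366 to 3470 in the 4 W/W comparisons, and from 685 to 3298 in the C57 tumours.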
